A study of Danio rerio with 8 samples.

Results

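Immediate early genes of the AP-1 and EGR families were followed in ventricular heart cells of adult zebrafish after sorting by a fluorescent reporter. The 10 genes were chosen by name: fosab, fosb, fosl1a, jun, junba, junbb, atf3, egr1, egr2a and egr3. They matched 10 of 31388 gene identifiers of the expression table, and all 10 passed the filter on low values (at least 1 TPM in at least 4 libraries), as did 13877 identifiers in all. TPM is a transcript abundance corrected for transcript length and set to the same total in each library, so that levels can be compared between genes. fosab (listed as FOS, ENSDARG00000031683) and fosl1a (listed as FOSL1, ENSDARG00000015355) were matched through RefSeq synonyms. fosb (ENSDARG00000055751), jun (ENSDARG00000043531), atf3 (ENSDARG00000007823), egr1 (ENSDARG00000037421), egr2a (ENSDARG00000044098) and egr3 (ENSDARG00000089156) were matched by symbol. junba and junbb are listed under the single symbol JUNB, as ENSDARG00000074378 and ENSDARG00000104773, and the names used here do not tell which identifier is which paralog. A further identifier listed as EGR2 (ENSDARG00000042826) is by synonym egr2b and was not counted as a member.

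All cells came from fish carrying the reporter transgene Tg(-6.8wt1a:EGFP), whose EGFP is driven from wt1a upstream sequence. No treatment was given, the fish were 3 to 9 months old, and 3 to 5 hearts were pooled per sample. Each of 4 pools gave 1 library labelled GFP-positive (wt1a+) and 1 labelled GFP-negative (wt1a-), 8 libraries in all. A pool is here the number in the sample titles, read with the pairing stated in the series design. Ventricles were dissociated with pronase, elastase, DNase and liberase TH before sorting, and no library of undissociated tissue was among the 8. A response to dissociation therefore cannot be told apart here from expression in the intact ventricle.

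AP-1 is a dimer of basic leucine zipper proteins, in which members of the FOS family pair with members of the JUN family, and ATF3 is a related protein of the same class. The EGR proteins are zinc finger transcription factors that bind GC-rich promoter elements. Genes of both kinds are transcribed within minutes of a growth factor, stretch or stress signal, without new protein synthesis, through serum response factor and MAP kinases. In mouse tissues, enzymatic dissociation is known to induce FOS, JUN and EGR1, and in zebrafish AP-1 is known to act in heart regeneration.

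The labelled sorts, pools and cell markers set the frame for these genes. wt1a (listed as WT1, ENSDARG00000031420), the gene behind the reporter, did not follow the labelled sort: its log2 difference, GFP-positive minus GFP-negative, was -0.10 (limma adjusted p = 0.974). It stood at 1.15 to 2.59 TPM in pools 1 and 2 against 39.51 to 106.82 in pools 3 and 4. The libraries are therefore named by their labels throughout. Whether labels of some libraries were exchanged was not tested, so each difference between sorts or pools below is one between libraries as labelled. The division of pools 1 and 2 from pools 3 and 4 is not a group of the study and was known from earlier results, so its sides are described and not tested as groups. Contrasts between single pools across it are given from the fit, and their direction is no independent support for it. The 50 most abundant identifiers took 74.4% to 80.5% of the TPM in pools 1 and 2 against 45.2% to 66.3% in pools 3 and 4. For this reason levels were also scaled between libraries by a trimmed mean of log ratios. This shifted the median gene by 0.83 on the log2 scale between the sides.

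The FOS and JUN genes and atf3 were abundant in every library, whatever its label or pool. fosab, which encodes the zebrafish counterpart of FOS, had 2281.61 and 1431.80 TPM in pool 1, giving the library labelled GFP-negative first, and 1949.98 and 1513.26 in pool 2. In the same order it had 4882.43 and 3741.81 TPM in pool 3, then 3529.87 and 2035.83 in pool 4. It was the highest of the 10 genes in all 8 libraries and ranked between 18 and 50 among all 31388 identifiers. After scaling, fosab lay at 2194 to 3465 in pools 1 and 2 against 1687 to 2920 in pools 3 and 4, and the sides overlapped.

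The other FOS members stood well below fosab but were still high. fosb, whose product also pairs with JUN proteins, had 273.69 to 692.27 TPM over the 8 libraries, with a median of 434. fosl1a encodes the zebrafish counterpart of FRA-1, a FOS protein that in mammals accumulates later than FOS itself. It had 154.57 to 674.73 TPM, and its highest value, in the library labelled GFP-negative of pool 3, stood clear of the next, 352.41. Relative to fosab in the same library, a ratio that no scaling between libraries can alter, fosb stood at 11.02% to 24.0% and fosl1a at 7.71% to 14.5%.

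The JUN genes, which encode the partners of FOS proteins in AP-1, were also high in all 8 libraries. jun had 148.70, 127.06, 152.09 and 127.14 TPM in pools 1 and 2 (GFP-negative before GFP-positive in each pool) and 298.64, 291.66, 232.10 and 230.66 in pools 3 and 4. After scaling, its highest level was 1.43 times its lowest. JUNB ENSDARG00000074378 had 190.55 to 261.77 TPM in pools 1 and 2 against 506.89 to 696.34 in pools 3 and 4, and JUNB ENSDARG00000104773 had 130.26 to 223.93 and 239.58 to 409.69. atf3, a stress-responsive gene, had 150.09, 91.32, 152.25 and 122.38 TPM in pools 1 and 2 against 303.20, 326.32, 204.35 and 256.01 in pools 3 and 4. In TPM as deposited, these 4 genes and fosl1a were higher in every library of pools 3 and 4 than in any of pools 1 and 2. In scaled TPM the sides overlapped for each of the 5.

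**Figure D1:**
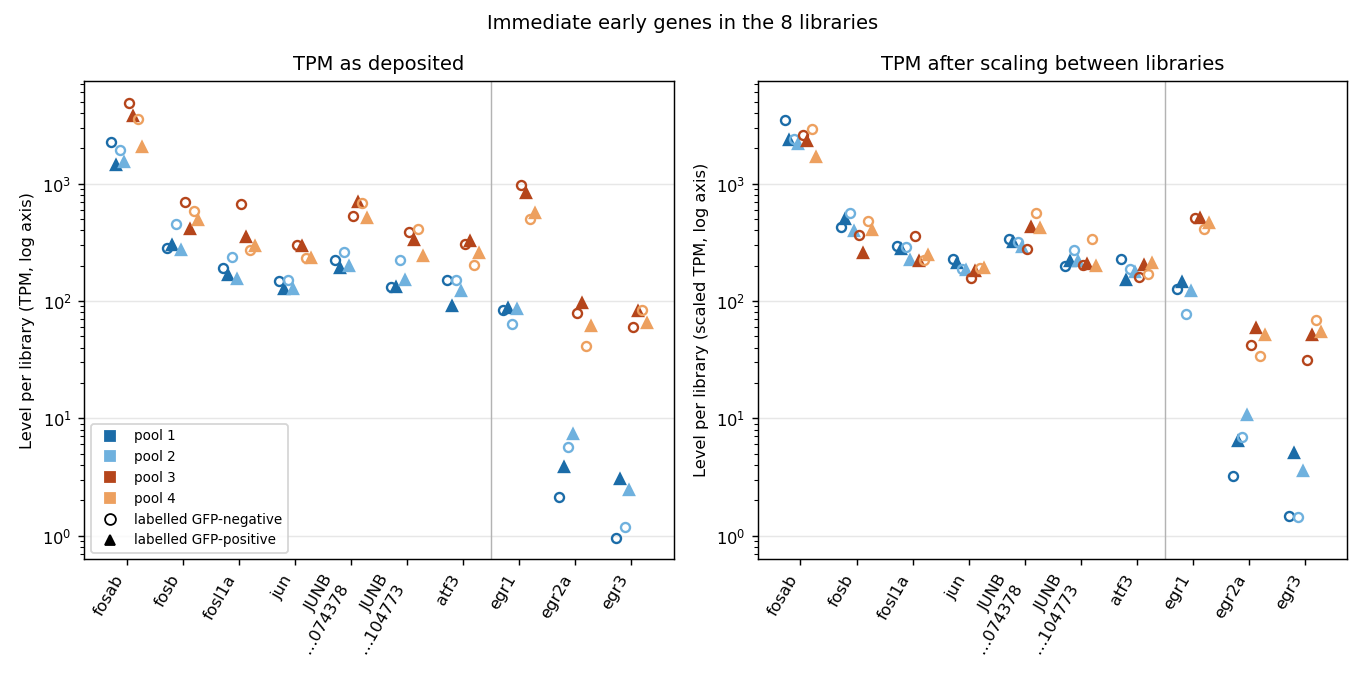
Level of each gene in each of the 8 libraries (log axes), as deposited TPM on the left and scaled TPM on the right; colours give the pool, open circles the libraries labelled GFP-negative and filled triangles those labelled GFP-positive. fosab is highest throughout, the FOS, JUN and atf3 points close up after scaling, and egr1, egr2a and egr3 keep pools 3 and 4 above pools 1 and 2 in both panels.

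The EGR genes had another pattern: all 3 were many times higher in pools 3 and 4 than in pools 1 and 2. In pools 1 and 2 egr2a and egr3 were low, and egr1 was not. egr1, a zinc finger factor and the best known of the family, had 83.52, 87.21, 63.39 and 84.63 TPM in pools 1 and 2, in the order given above for jun. In pools 3 and 4 it had 965.25, 826.58, 499.88 and 557.16 TPM. The lowest library of pools 3 and 4 thus stood 5.73 times above the highest of pools 1 and 2 as deposited, and 2.86 times after scaling. Among the 10 genes egr1 was the eighth in level in each library of pools 1 and 2, where it ranked between 398 and 702 among all 31388 identifiers. It was the second in 3 libraries of pools 3 and 4 and the fourth in the library labelled GFP-negative of pool 4.

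egr2a, a paralog of the hindbrain segmentation gene egr2b, had 2.14, 3.87, 5.71 and 7.38 TPM in pools 1 and 2 against 78.93, 95.25, 41.00 and 61.71 in pools 3 and 4. Its lowest library in pools 3 and 4 stood 5.56 times above its highest in pools 1 and 2 as deposited and 3.17 times after scaling. egr3 had 0.96, 3.04, 1.19 and 2.46 TPM in pools 1 and 2 against 59.43, 82.48, 83.64 and 65.47 in pools 3 and 4. Here the lowest library of the higher side stood 19.5 times above the highest of the lower side as deposited and 6.25 times after scaling. In these 3 genes the sides did not overlap on either scale, with pools 3 and 4 higher. As deposited 8 of the 10 genes did not overlap, against 33.4% of all genes with pools 3 and 4 higher and 6.26% with pools 1 and 2 higher; in scaled TPM 3 did not, against 12.1% and 14.5%. In bulk libraries such as these, fewer cells of a type and less RNA per cell cannot be told apart.

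All 3 EGR genes passed the test for differences among the 4 pools, and none of the 7 FOS, JUN and ATF3 genes did. The test was limma's F test on log2(scaled TPM + 1) with the labelled sort in the model and Benjamini-Hochberg adjustment over all genes. It called 12.9% of the 13877 genes, with the highest means in pools 3 and 4 for 4.55% and in pools 1 and 2 for 7.85%. The 3 members all belonged to the former. The limma adjusted p was 0.00196 for egr1, 0.00160 for egr2a and 0.00176 for egr3, and 0.340 to 0.997 for the other 7. The spread in this test comes from the 2 libraries of a pool. If the stated pairing holds, these share hearts, and the p-values leave out how one set of hearts differs from another.

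Between single pools, egr1 in pool 3 exceeded pool 1 by 1.91 on the log2 scale (SE 0.25, 95% confidence interval 1.32 to 2.49) and pool 2 by 2.38. In pool 4 it exceeded pool 1 by 1.68 and pool 2 by 2.15. For egr2a these 4 differences ran from 2.14 to 3.17 (SE 0.31) and for egr3 from 3.41 to 4.22 (SE 0.45). The limma adjusted p of these 12 differences lay between 0.00136 and 0.00656. fosab gave -0.23 between pools 3 and 1 (SE 0.29, 95% confidence interval -0.91 to 0.45). For atf3 the 4 differences ran from -0.05 to 0.06, and for fosb from -0.62 to -0.07. JUNB ENSDARG00000074378 had the highest values of the 7, 0.08 to 0.68 (SE 0.29), short of the threshold (limma adjusted p of 0.192 or more). Its 95% confidence interval between pools 4 and 2 reached 1.36. That of fosb between pools 3 and 2 ran from -1.24 to -0.0047, clear of 0 before adjustment (limma adjusted p = 0.174). Differences as large as 1.36 and -1.24 are therefore not excluded for these genes. The intervals rest on the same spread within pools as the F test and on scaled TPM, so larger differences are not excluded either. The ends of the intervals are not a limit of detection. Within the sides no member passed the test, as limma called 0 (0%) of all 13877 genes between pools 2 and 1 and 0 (0%) between pools 4 and 3. At an unadjusted p under 0.05 it picked 375 genes (2.7%) in the former contrast, egr2a among them, and 1186 (8.55%) in the latter. Between pools 2 and 1 egr2a gave 0.78 (95% confidence interval 0.068 to 1.499) and egr1 -0.47 (limma adjusted p = 1 for each), and between pools 4 and 3 egr3 gave 0.60 (limma adjusted p = 0.763).

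The result for the FOS, JUN and ATF3 genes depended on the scale, and that for the EGR genes did not. With the TPM as deposited, the F test called 9 of the 10 genes, all with their highest means in pools 3 and 4, but it then called 28.9% of all genes, 22.6% in that direction and 4.68% in the opposite one. fosb was the exception (limma adjusted p = 0.0953). The mean of pools 3 and 4 exceeded that of pools 1 and 2 by 0.73 (fosb) to 1.46 (JUNB ENSDARG00000074378) on the log2 scale for the 7 genes, against a median of 0.80 over all genes tested. Relative to that median they ranged from -0.07 to 0.65. egr1, egr2a and egr3 stood 2.30, 2.83 and 3.91 above it. In scaled TPM the 7 genes had a median difference of -0.07 and the 3 EGR genes one of 2.66, beside -0.03 over all genes.

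**Figure D2:**
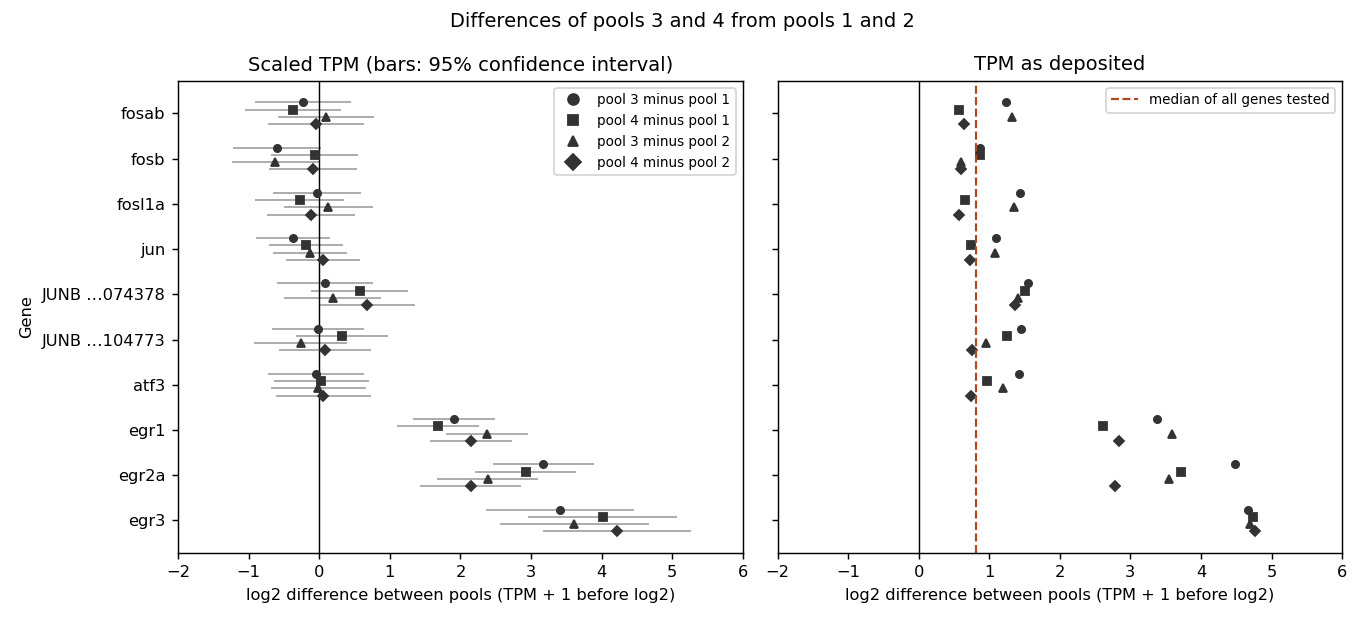
Log2 differences of pool 3 and pool 4 from pool 1 and pool 2 for each gene. The left panel shows scaled TPM with 95% confidence intervals, the right panel TPM as deposited. The dashed line, 0.80, is the median over all genes tested of the mean of pools 3 and 4 minus that of pools 1 and 2. It is not the median of each single contrast. The 7 FOS, JUN and ATF3 genes sit around 0 on the left, with all 4 contrasts of fosb below it and all 4 of JUNB ENSDARG00000074378 above it. On the right they run from 0.56 (fosl1a) to 1.55 (JUNB ENSDARG00000074378), and that JUNB identifier lies above the line in all 4 contrasts. The 3 EGR genes lie to the right of 0 and of the line.

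Ratios within a library showed the same arrangement without any scaling. egr1 stood at 3.25% to 6.09% of the fosab TPM in pools 1 and 2 and at 14.2% to 27.4% in pools 3 and 4. For egr2a this share was 0.0938% to 0.488% in the former and 1.16% to 3.03% in the latter, and for egr3 it was 0.0421% to 0.212% and 1.22% to 3.22%. The ratios of jun, atf3, fosb, fosl1a and both JUNB identifiers to fosab overlapped between the sides. The summed TPM of the 3 EGR genes was 2.05% to 3.86% of that of the 7 others in pools 1 and 2 against 10.6% to 16.9% in pools 3 and 4. These ratios are descriptions and were not tested.

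**Figure D3:**
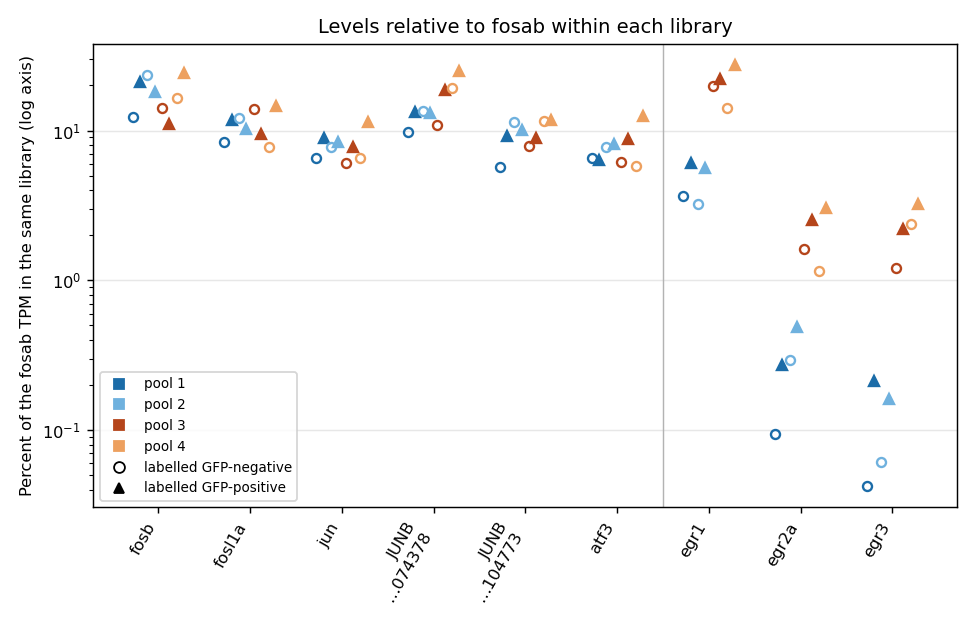
Level of each gene as a percentage of the fosab TPM in the same library (log axis), with colours for pools and symbols for the labelled sorts. The 3 EGR genes separate pools 3 and 4 from pools 1 and 2, as for egr1 with 14.2% or more against 6.09% or less, and the FOS, JUN and ATF3 genes do not.

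Between the labelled sorts no member passed the threshold. Of the 10 genes limma called 0, as it called 0 (0%) of all 13877, and 1 of 10 had an unadjusted p under 0.05, against 5.55% of all genes. That gene was egr2a, whose level averaged 42.1 ± 44.3 TPM (SD, n = 4) under the GFP-positive label, compared with 31.9 ± 35.9 (SD, n = 4) under the GFP-negative label. In 4 of 4 pools the library labelled GFP-positive was the higher one, by 0.60 on the log2 scale (SE 0.22, 95% confidence interval 0.10 to 1.11; limma adjusted p = 0.853). egr3 gave 0.63 (SE 0.32) and egr1 0.25 (SE 0.18), each higher in 3 of 4 pools and short of the threshold (limma adjusted p of 0.853 and 0.873).

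fosab had the opposite sign. It averaged 2181 ± 1075 TPM (SD, n = 4) under the GFP-positive label, compared with 3161 ± 1334 (SD, n = 4) under the GFP-negative label. In 4 of 4 pools the library labelled GFP-positive was the lower one, as deposited and scaled, with a log2 difference of -0.41 (SE 0.21, 95% confidence interval -0.89 to 0.08; limma adjusted p = 0.853). fosb gave -0.26, fosl1a -0.26 and JUNB ENSDARG00000104773 -0.23, while jun, atf3 and JUNB ENSDARG00000074378 lay within 0.02 of 0 and changed sign under some of the alternative settings. A sign shared by all 4 pools was seen in 2 of the 10 genes and in 13.7% of all genes tested, 6.51% lower and 7.15% higher under the GFP-positive label. The 3 EGR genes had a median difference of 0.60 and the 7 others one of -0.23, beside 0.01 over all genes; none of these differences passed the test.

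**Figure D4:**
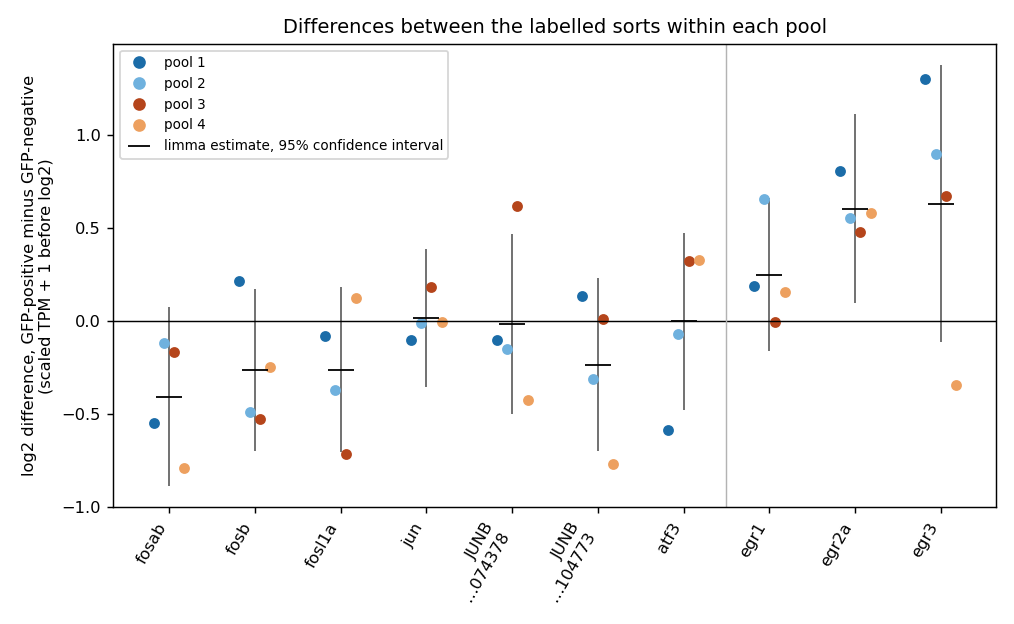
Log2 difference between the library labelled GFP-positive and the one labelled GFP-negative within each pool (coloured points), with the limma estimate and its 95% confidence interval (black). Only egr2a has an interval clear of 0 before adjustment, 0.10 to 1.11, and fosab is below 0 in all 4 pools.

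Close relatives of the 10 genes were expressed to very different degrees. The counts of called genes in this list stand beside 12.9% of all genes in scaled TPM and 28.9% as deposited. Of 24 other identifiers of the AP-1 class, 15 were tested and 4 differed among the pools, 3 of them highest in pools 3 and 4 and 1 highest in pools 1 and 2; with the TPM as deposited 7 differed, all 7 highest in pools 3 and 4. atf5b, encoding a basic leucine zipper factor of the stress response, had 8.27 to 12.89 TPM in pools 1 and 2 against 91.32 to 217.06 in pools 3 and 4 (limma adjusted p = 0.00113). Its paralog atf5a had 0.72 to 1.73 and 13.72 to 30.19 TPM. JDP2 (ENSDARG00000020133), a repressor that pairs with JUN proteins, had 140.98 to 215.12 and 105.05 to 244.02 TPM. It passed the F test among the pools in scaled TPM (limma adjusted p = 0.0427), where its highest means were in pools 1 and 2. As deposited it did not (limma adjusted p = 0.868). A second JDP2 identifier (ENSDARG00000040137) had 0.27 to 2.59 and 1.21 to 10.73 TPM. Its difference between the sides was 0.87 in scaled TPM, and it passed on neither scale. The FOS paralogs fosaa, fosl1b and fosl2l reached at most 2.95, 0.36 and 0.15 TPM.

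Among EGR relatives, egr2b (listed as EGR2, ENSDARG00000042826) reached at most 3.29 TPM and egr4 at most 2.33, and neither was tested. NAB1 and NAB2 encode corepressors that bind EGR proteins. NAB1 (ENSDARG00000040700) had 0.91 to 2.80 TPM in pools 1 and 2 against 11.86 to 26.95 in pools 3 and 4, and NAB2 (ENSDARG00000078076) had 0.54 to 2.47 and 6.21 to 15.21. A second NAB1 identifier (ENSDARG00000042940) had 1.52 to 2.64 and 1.23 to 12.46 TPM, with a difference of -0.02 between the sides in scaled TPM, and passed on neither scale. Neither NAB1 ENSDARG00000040700 nor NAB2 passed the test in scaled TPM (limma adjusted p of 0.0644 and 0.166). As deposited both did (0.0124 and 0.0264).

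Most other immediate early genes did not pass the test in scaled TPM, and those that did were divided. Their counts stand beside 12.9% of all genes called in scaled TPM and 28.9% as deposited. Of 55 tested, 10 differed among the pools, 5 highest in each pair of pools, with a median difference of 0.18 between the sides; with the TPM as deposited 33 differed, 30 of them highest in pools 3 and 4. ID3 and ID1 encode inhibitors of basic helix-loop-helix factors: ID3 had 40.96 to 49.24 TPM in pools 1 and 2 against 243.27 to 465.97 in pools 3 and 4, and ID1 8.72 to 10.93 and 57.00 to 93.83. ZFP36L2, an mRNA decay factor, had 14.72 to 20.17 and 59.36 to 125.07 TPM. NR4A1, a nuclear receptor that is itself a classical immediate early gene, went the other way with 93.97 to 113.16 and 34.09 to 74.38 TPM (limma adjusted p = 0.00262). klf2b, a factor of flow-exposed endothelium, had 33.77 to 52.40 and 0.44 to 9.89 TPM, and PLK2 (ENSDARG00000090752), a polo-like kinase, 5.92 to 13.93 and 1.07 to 4.35.

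Counts of signalling genes around the immediate early response are small and stand beside 12.9% of all genes called in scaled TPM and 28.9% as deposited. Whether either list below differs from these shares was not tested. Of 37 tested genes for serum response factor, its partners, CREB factors and MAP kinases, 3 differed among the pools (13 as deposited, 12 of them highest in pools 3 and 4). cremb, a cyclic AMP response factor, had 2.42 to 7.94 TPM in pools 1 and 2 against 37.64 to 73.89 in pools 3 and 4. Its paralog crema had 104.47 to 275.95 and 116.39 to 225.90 TPM and passed the F test in scaled TPM alone (limma adjusted p = 0.0469), with its highest means in pools 1 and 2. The third was an identifier listed as SRF (ENSDARG00000102867), the serum response factor itself. It had its highest means in another order of pools and a difference of -1.09 between the sides. A second SRF identifier (ENSDARG00000053918) had a difference of 0.82 and did not pass the test in scaled TPM. Of 15 tested MAP kinase phosphatases and feedback inhibitors, 4 differed, 2 highest in pools 3 and 4, 1 in pools 1 and 2, and DUSP10 in another order (9 as deposited, 7 of them highest in pools 3 and 4). The phosphatase gene DUSP2 had 9.85 to 12.89 and 37.41 to 114.95 TPM, and SPRED2 (ENSDARG00000008372), an inhibitor of RAS signalling, 6.93 to 10.88 and 43.54 to 61.40. ERRFI1, an inhibitor of the EGF receptor, had 40.36 to 56.82 and 16.76 to 21.62 TPM.

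Heat shock and stress genes are another group that dissociation is known to induce. Over all genes 12.9% were called in scaled TPM and 28.9% as deposited. Of 33 tested, 6 differed among the pools, all 6 with their highest means in pools 1 and 2, and the list's median difference was -0.22; with the TPM as deposited 16 differed, 13 highest in pools 3 and 4 and 3 in pools 1 and 2. The chaperone gene hsp90aa1.1 had 118.18 to 259.70 TPM in pools 1 and 2 against 20.17 to 63.48 in pools 3 and 4, and HSPB7, a small heat shock protein of heart muscle, 289.93 to 517.40 and 38.96 to 105.71. Both were called on either scale. HSPE1, a mitochondrial chaperonin, had 83.84 to 132.49 and 73.42 to 111.84 TPM and was called in scaled TPM alone (limma adjusted p of 0.0163, and 0.328 as deposited). hsp70l also passed in scaled TPM, with a difference of -1.36 between the sides. hsp70.1 (-0.77), hsp70.3 (-0.36), dnajb1a (-0.84) and dnajb1b (0.72) did not pass. All 7 tested cardiomyocyte identifiers, given below, also had their highest means in pools 1 and 2. Whether this list reflects dissociation or the share of heart muscle cells was not tested.

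Genes listed here by name as AP-1 targets split into opposite directions. The list was not checked against AP-1 binding, and whether AP-1 acts on these genes here was not tested. Of 21 tested, 13 differed among the pools, 7 highest in pools 3 and 4 and 6 in pools 1 and 2 (as deposited 15, 10 and 5). The share over all genes was 12.9%, and 28.9% as deposited. MMP2, a gelatinase, had 17.06 to 23.99 TPM in pools 1 and 2 against 178.99 to 272.94 in pools 3 and 4, and MMP14 (ENSDARG00000002235), a membrane-bound metalloproteinase, 1.65 to 4.12 and 40.29 to 85.54. VEGFA (ENSDARG00000103542), a vascular growth factor, had 7.67 to 9.24 and 74.54 to 157.67 TPM, a difference of 2.52 in scaled TPM. A second VEGFA identifier (ENSDARG00000034700) was also called and went the other way, with a difference of -3.48. In the other direction il11a, a cytokine of the IL-6 family, had 29.46 to 116.50 and 9.28 to 19.17 TPM, and PTGS2 (ENSDARG00000004539), the inducible prostaglandin synthase, 52.70 to 130.69 and 6.93 to 17.05. NR4A1, given above, is also on this list. No member of these 7 lists passed the test between the labelled sorts.

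**Figure D5:**
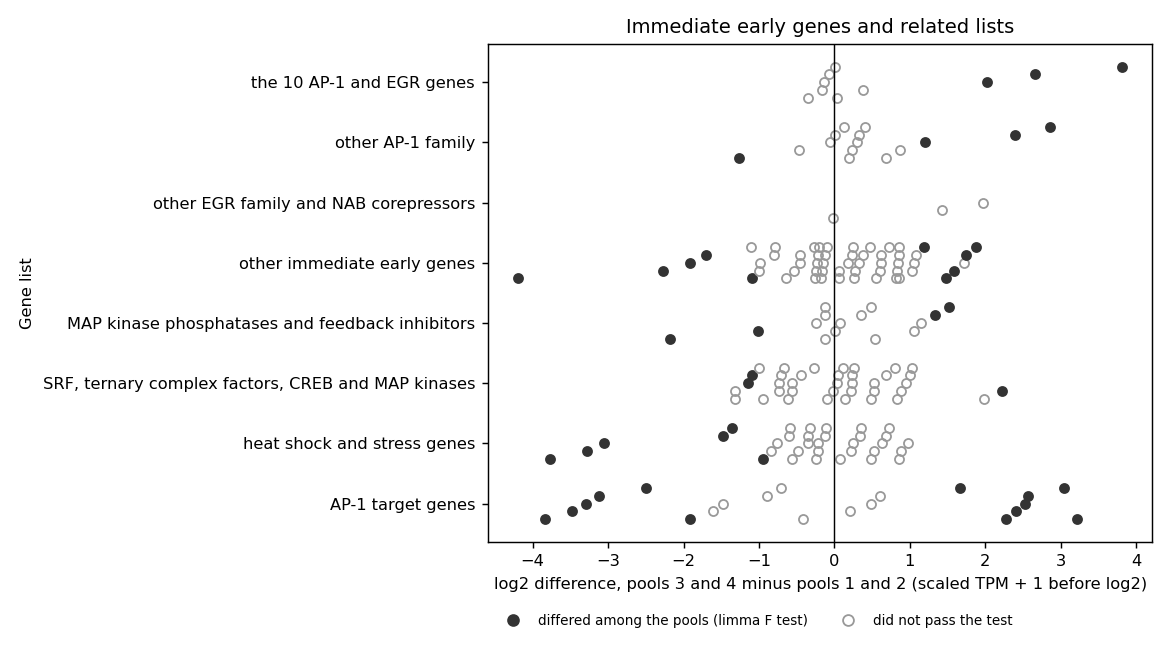
Log2 difference between the mean of pools 3 and 4 and that of pools 1 and 2 (scaled TPM) for each tested gene of the 10 and of 7 related lists, filled where limma's F test among the pools passed. The 3 filled points of the first row are egr2a, egr3 and egr1, at 2.03 or more, and the filled points of the heat shock row all lie below 0. With the TPM as deposited, which is not drawn, 16 heat shock genes were called. Of these 13 were highest in pools 3 and 4, and 3 stayed highest in pools 1 and 2.

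Markers of several cell types moved with the same division of pools as the EGR genes. Their counts, in scaled TPM, stand beside 12.9% of all genes called. The sums are of TPM as deposited over all matched identifiers of a list, also those not tested. Of 10 fibroblast identifiers 9 differed among the pools, 8 of them highest in pools 3 and 4, and their summed level was 168 to 322 TPM in pools 1 and 2 against 3631 to 7755 in pools 3 and 4; none was at 0 in any library. Of 6 epicardial genes 5 differed, 4 highest in pools 3 and 4, with sums of 54.0 to 147 and 238 to 474 TPM and none at 0. Those 4, wt1a, wt1b, TCF21 and TBX18, stood at 1.08 to 6.78 TPM in pools 1 and 2 against 35.41 to 211.76 in pools 3 and 4. The fifth called gene, ALDH1A2, went the other way with 38.27 to 125.44 and 1.60 to 5.55 TPM. It made up most of the sum in pools 1 and 2. Of 6 tested smooth muscle identifiers 4 differed, 3 highest in pools 3 and 4, with sums of 61.1 to 91.5 and 444 to 724 TPM; acta2, CNN1 and MYH11 were listed at 0 in at least 1 library. Cardiomyocyte identifiers went the other way, 7 of 7 tested, with sums of 22184 to 31515 TPM in pools 1 and 2 against 1576 to 4190 in pools 3 and 4, and with TNNI1 and TNNT2 identifiers at 0 in at least 1 library. So did 6 of 6 endothelial genes, with sums of 202 to 369 and 10.96 to 57.24 TPM and ERG and TIE1 at 0 in at least 1 library. The erythrocyte list did too, with 5 of 5 tested, sums of 700 to 1781 and 6.31 to 32.3 TPM, and SLC4A1, cahz and hbae5 at 0 in at least 1 library. Of 9 tested macrophage identifiers 4 differed, 3 highest in pools 1 and 2, with overlapping sums of 149 to 246 and 160 to 336 TPM and with MFAP4 and MPEG1 identifiers at 0 in at least 1 library. The part of these cell types in the EGR result was not tested.

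The genes whose pattern over the 8 libraries lay nearest to egr1 were grin2da, SERP1, ID3, si:dkey-19n13.5 and zgc:162730. Likeness was measured as the root mean square difference of log2(scaled TPM + 1) after centring each gene, and it ran from 0.14 for grin2da to 0.20 for zgc:162730, where egr1 itself had an SD of 1.12. SERP1, a protein of the endoplasmic reticulum, had 8.67 to 12.55 TPM in pools 1 and 2 against 67.67 to 116.99 in pools 3 and 4. The genes nearest to fosab included LTV1, gramd1a and STIMATE, at 0.13 to 0.15, where fosab had an SD of 0.30. LTV1 had 5.71 to 18.64 TPM over the 8 libraries, gramd1a 1.67 to 4.71 and STIMATE 1.05 to 5.82. The last 2 lie near the filter of 1 TPM, where adding 1 before log2 flattens differences, so their likeness to fosab is a weak one. In pools 1 and 2 grin2da lies near that filter too, with 1.00 to 1.92 TPM against 12.73 to 20.17 in pools 3 and 4. Its likeness to egr1 has the same limit.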

How the data were processed

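RNA of sorted ventricular cells was sequenced as single reads of 60 bases from 0.2 to 0.6 ng of total RNA, per the labels' protocols. The same protocol text also names mCherry-positive cells and another library kit; the sample titles, which speak of GFP, gave the groups. CASAVA 1.8.2, cutadapt, RSEM 1.2.25 and build Zv9 are listed in the submitters' processing notes. Which aligner and annotation release were used is not given in the sources used here. Values deposited by the authors are TPM per gene, with the same total in each library within rounding. TPM keeps no depth, so depth per library is unknown and no counting interval was computed.

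Scaling between libraries used a trimmed mean of log ratios without weights (30% of ratios and 5% of abundances trimmed at each end). limma 3.58.1 in R 4.3.3 was fitted to log2(scaled TPM + 1) of 13877 genes, with pool as a block, the labelled sort as a term, a prior variance following the mean level, and Benjamini-Hochberg adjusted p under 0.05. Fold changes on this scale understate those of low genes. Pairing is stated in the series design, with pairs taken from the pool number: deviations from the sort means correlated within pools 1 to 4 at 0.492, 0.537, 0.446 and 0.403. Opposite sorts of different pools correlated as closely within pools 1 and 2 (0.552 and 0.474) and within pools 3 and 4 (0.437 and 0.382), so the pairing rests on the design text. The fit was tested on simulated data.

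The members and lists were chosen with earlier results of these data known. Of 281 list entries, 254 were matched by symbol, RefSeq synonym (assembly GRCz12tu, names alone) or symbol without paralog letter. Named were all members, up to 3 called genes per list and direction, up to 2 uncalled genes where fewer than 2 were called, and the 5 genes most like egr1 and fosab. Of the genes this rule picks, 3 are not reported here. Marker lists are given by counts and sums. For the epicardial list the levels of its called genes were added after their values were seen. Both SRF identifiers, DUSP10 and the second JDP2, NAB1 and VEGFA identifiers were named after their values were seen. So were hsp70l, hsp70.1, hsp70.3, dnajb1a and dnajb1b. Alternatives covered scaling, filters, pseudocounts, the prior variance, the block and leaving out pools or libraries. Tables were read with Python 3.11.15.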

Additional observations from a re-analysis of the deposited data

Results flagged for a closer look

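atf3 was picked out because its difference between the labelled sorts had one sign in pools 1 and 2 and the other in pools 3 and 4. The log2 difference, GFP-positive minus GFP-negative in scaled TPM, was -0.587 in pool 1, -0.0692 in pool 2, 0.322 in pool 3 and 0.325 in pool 4. In TPM as deposited the signs were the same. The difference between the pairs of pools was not tested. fosl1a was picked out because 1 library stood apart in TPM as deposited: among the libraries labelled GFP-negative it had 192.74, 237.06, 272.16 and 674.73 TPM in pools 1, 2, 4 and 3, and the gap below the highest took 0.835 of the range, over Dixon's critical value for 4 samples. In scaled TPM that library did not stand apart. It was the only set over that value among the 60 examined, 20 sets of 4 libraries on 3 scales, and chance alone flags about 0.05 of such sets.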

How the results depend on the processing

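egr1, egr2a and egr3 kept their direction and their call among the pools in all 19 alternatives, and no alternative gave a call of any of the 10 genes between the labelled sorts. Scaled to library totals, that is with the TPM as deposited, 4007 genes and 9 members were called among the pools and 8 members did not overlap. The differences of pools 3 and 4 from pools 1 and 2 then turned to 0.94 for fosab, 0.73 for fosb, 1.00 for fosl1a and 0.91 for jun, with the median of all genes at 0.80. The sort difference of jun turned to -0.13. Median of ratios turned atf3 to -0.010 among the pools and to 0.0055 between the sorts. A minimum of 5 TPM turned the sort difference to 0.033 for atf3 and 0.019 for JUNB ENSDARG00000074378. Without a filter 884 genes were called among the pools. With no replicate block, 0 genes were called between the sorts, and the block changed no call.

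When 1 pool or 1 library was omitted, 3 members were called among the pools each time. The genes called among the pools ran from 926 to 1429: 1091 without pool 1, 1081 without pool 2, and 926, 969, 1064 and 981 without the GFP-negative and GFP-positive libraries of pools 1 and 2 in turn. The members without overlap ran from 3 to 5. There were 5 without pool 4 and 4 without pool 2, of which 3 each were higher in pools 3 and 4 and the others higher in pools 1 and 2. There were 4 without pool 3 or its GFP-negative library, all 4 higher in pools 3 and 4. The share of all genes without overlap was not taken for these settings. With fewer libraries on a side any gene overlaps less readily, so these counts are no result about the members. The genes called between the sorts ran from 0 to 3, with 2 without pool 2, 3 without either of its libraries, and 1 without pool 3 or either of its libraries. Sort differences ran from -0.049 to 0.063 for jun, -0.24 to 0.12 for JUNB ENSDARG00000074378 and -0.13 to 0.20 for atf3. Pool differences ran from -0.29 to 0.037 for fosab, -0.24 to 0.077 for fosl1a, -0.15 to 0.21 for JUNB ENSDARG00000104773 and -0.19 to 0.20 for atf3. The cause of these changes was not tested. A pool that lost 1 library no longer informed the sort difference.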
